A study of Homo sapiens with 6 samples.

Results

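The genes examined here encode the respiratory chain, and they come from 2 genomes. A locus of the deposited expression table was taken as a member when it lay on the mitochondrial chromosome, or when a symbol in it started with NDUF, UQCR, SDHA to SDHD or ATP5, or with COX followed by a digit from 4 to 8. Of 74852 loci in the table, 129 met this rule, of which 22 were mitochondrial and 107 nuclear. The nuclear loci comprised 84 of subunits, 14 of assembly and other factors, and 9 of pseudogenes and antisense RNAs. The cells were MDA-MB-231, an established human breast cancer line of the triple-negative (TNBC) subtype. They were transfected in 2 rounds with a non-targeting control siRNA (si-CTRL) or with siRNA against SAM68 (si-SAM68), and were harvested 24 h after the second round, as the sample labels give it. The methods of the study name pools of siRNAs and give another harvest time, counted from transfection. Each group had 3 libraries of polyadenylated RNA, and the groups differed in no other label. Depletion lowers SAM68, an RNA-binding protein encoded by KHDRBS1, without removing it, and 1 cell line was used, so that the values describe this line after transient silencing.

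The respiratory chain sits in the inner mitochondrial membrane. Complexes I and II feed electrons into it, complex III passes them to cytochrome c, complex IV hands them to oxygen, and complex V, the ATP synthase, uses the proton gradient that results. Complex II is made from nuclear genes alone, whereas the other complexes combine nuclear subunits with subunits encoded by mitochondrial DNA, which is copied into long RNAs that are cut into mRNAs, tRNAs and rRNAs inside the organelle.

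KHDRBS1 fell from 14960 ± 620 normalized reads (SD, n = 3) in si-CTRL to 618 ± 45.8 (SD, n = 3) in si-SAM68, which left 4.13% of its level. The difference was −4.60 on the log2 scale (adjusted p = 2.1e-09 in the limma fit over all loci), and the exact two-sided permutation test gave 0.1, the smallest p that 3 libraries against 3 allow. The values are read counts on a locus divided by a size factor of the library. Recovered reads ranged from 52625492 to 82568487 per library, and 18849 loci with a mean of at least 10 were tested. Markers of the line were present, with VIM, CD44, AXL, CAV1, KRT8 and KRT18 between 16628 and 173162, whereas ESR1, PGR, CDH1 and EPCAM stayed at or below 15.2. Among markers of other cells, PTPRC, CD3E, LYZ and DCN stayed at or below 13.6, PECAM1 and CDH5 at or below 42.5, and COL1A1, a fibroblast collagen, lay between 138281 and 181387.

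2 of the libraries stood apart, and fold changes that one of them moves by more than 1.5 times are given with and without it. In si-CTRL replicate 1, the shallowest library, 28.3% of the tested loci had their lowest value and 27.5% their highest, against 12.5% to 17.3% and 11.4% to 19.1% in the other libraries. In si-SAM68 replicate 2 the precursor of cytosolic rRNA took 15.1% of the reads, against 1.83% to 3.17% elsewhere. RMRP, a non-coding RNA without a poly(A) tail, was at 4694 in that library and between 105 and 329 in the others.

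Among nuclear subunits, SDHA, NDUFS5 and UQCRC2 were downregulated upon SAM68 depletion, each by less than 1.5-fold, in the limma fit with all libraries, and no member was upregulated in that fit. These were 3 of 98 tested nuclear loci (3.06%), against 6.23% of all tested loci called lower at an adjusted p under 0.05. With 1 library left out the count of nuclear calls was between 0 and 4, falling to 1 when si-CTRL replicate 2 or 3 or si-SAM68 replicate 2 was dropped and to 0 when si-SAM68 replicate 3 was dropped. The count of 0 higher stands against 4.47% of all loci. EdgeR and DESeq2 called the same 3 loci lower, against 6.19% and 8.18% of all loci. DESeq2 also called NDUFA12, NDUFB5 and the ATP5O locus higher, 3 of 98 against 6.62% of all loci, whereas edgeR called 0 higher (4.56% of all loci). Without both libraries that stood apart, limma called 1 nuclear locus higher, NDUFB5 (adjusted p = 0.040), against 4.38% of all loci. By the thresholds of the study (1.5-fold or more, with an unadjusted p no larger than 0.05), limma called 7.67% of all loci. DESeq2 called 477 of the 18849 tested loci higher and 857 lower by them. Neither called a respiratory chain locus of either genome. DESeq2 gave no adjusted p for the 5 short mitochondrial loci that were high in si-SAM68 replicate 2. Its lack of a call there is thus no second result beside limma. By the same thresholds edgeR, which called 7.95% of all loci, called 3 short mitochondrial loci higher, all among the 5 that were high in si-SAM68 replicate 2. At an unadjusted p under 0.05 in limma, without the fold threshold, 12 nuclear loci (12.2%) and 1 of 19 mitochondrial loci (5.26%) passed, against 27% of all loci. RNA in bulk was measured, so that fewer cells making an RNA and less of it per cell cannot be told apart. Nothing in the labels says that the libraries came from separate cultures, and p-values then measure the spread between these libraries.

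The start regions of SDHA and UQCRC2 are printed because these genes are members that passed the test and have an entry in the RefSeq promoter table used here, in which NDUFS5 was not matched, and because transcription factors such as NRF1 and YY1 are known to bind the promoters of many respiratory genes. Sequences are from RefSeq (build GRCh38.p14), 250 bases before and 30 bases after the start, on the plus strand, at chr5:218070-218349 for SDHA and chr16:21953111-21953390 for UQCRC2. Capitals mark matches to the NRF1 motif GCGCANGCG in SDHA and to the reverse complement of the YY1 motif AAGATGG in UQCRC2.
SDHA: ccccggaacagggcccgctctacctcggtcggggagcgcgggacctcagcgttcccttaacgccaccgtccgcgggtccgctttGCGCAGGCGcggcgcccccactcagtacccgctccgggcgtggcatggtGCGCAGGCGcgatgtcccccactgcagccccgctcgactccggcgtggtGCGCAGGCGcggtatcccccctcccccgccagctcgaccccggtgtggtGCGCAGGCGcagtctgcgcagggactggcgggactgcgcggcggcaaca
UQCRC2: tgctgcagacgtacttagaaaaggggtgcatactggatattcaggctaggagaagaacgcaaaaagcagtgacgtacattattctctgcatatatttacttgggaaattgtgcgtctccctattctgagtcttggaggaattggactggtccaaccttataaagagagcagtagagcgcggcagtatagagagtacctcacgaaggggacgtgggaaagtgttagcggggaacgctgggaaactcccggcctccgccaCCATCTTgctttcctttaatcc
The NRF1 motif, searched on both strands with overlapping matches counted once, stood 4 times before the SDHA start, with first bases at −166, −117, −68 and −19. These 4 matches are evenly spaced with similar letters around them, so that they need not be independent of each other. Of 35116 promoters of the same length, 7.33% held the NRF1 motif at least once and 10 held it 4 or more times. It was found in 20 of the 68 subunit promoters that could be matched by symbol (29.4%). The YY1 motif of UQCRC2, whose first base is at position 9 after the start, was present in 5.19% of all promoters and in 14 of the 68 (20.6%). An ETS motif, CCGGAAG, is in neither window, and it was held by 9.94% of all promoters and 19 of the 68 (27.9%). These matches describe the letters and show no binding.

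SDHA (chr5:218338-257196, hg19) encodes the flavoprotein of complex II, which oxidizes succinate and so serves the citric acid cycle as well. Si-CTRL replicates 1 to 3 had 19550, 17889 and 19189 normalized reads, and those of si-SAM68 had 14880, 13795 and 13237. The groups did not overlap, and 74.0% of the control level was left. The log2 fold change was −0.43 (SE 0.08, adjusted p = 0.0080 in limma), and the call was lost in 1 of 18 alternative settings, when si-SAM68 replicate 3 was left out (adjusted p = 0.052). The pseudogenes SDHAP1, SDHAP2 and SDHAP3 resemble SDHA and could share reads with it. Their fold changes were −0.04, −0.12 and −0.34 on the log2 scale, and −0.27 for SDHAP3 and between −0.04 and 0.0080 for the others without si-CTRL replicate 1. None was called, and none had a mean in either group above 632 normalized reads.

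The other subunits of complex II did not pass the test. SDHB, the iron-sulfur subunit, ranged from 9417 to 9769 in si-CTRL and from 8826 to 9797 in si-SAM68. SDHC, a membrane anchor, was at 9357, 13326 and 12813 in si-CTRL and at 14315, 13404 and 14359 in si-SAM68 (log2 fold change 0.26, adjusted p = 0.21 in limma). The low value was that of si-CTRL replicate 1, and the fold change was 0.10 without it. SDHD, the second anchor, had a log2 fold change of 0.19 (adjusted p = 0.44) with the same library low at 4388 against 6251 to 7005 elsewhere, and of −0.01 without that library.

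In complex I, which oxidizes NADH, 1 of 37 tested subunits was called lower by limma, against 6.23% of all loci, and 0 higher, against 4.47%. NDUFS5 (chr1:39491967-39500307, hg19), a small accessory subunit, was at 9470, 10459 and 10839 in si-CTRL and at 8319, 7444 and 7857 in si-SAM68. Every si-SAM68 library lay below every si-CTRL library. The log2 fold change was −0.38 (SE 0.08, adjusted p = 0.018 in limma), with adjusted p-values from 7.2e-04 to 0.094 over the 18 alternatives. Of these, 13 kept the call, which was lost on leaving out si-CTRL replicate 2 or 3 or si-SAM68 replicate 2 or 3 and with eBayes without a trend (adjusted p = 0.075). No change of NDUFV1, the subunit that binds NADH, passed the test, with values of 14571, 15675 and 14949 against 15993, 13723 and 13712. Accessory subunits with a higher mean in si-SAM68 did not pass either. NDUFB6 was at 1619, 3746 and 3812 in si-CTRL and at 4209, 3951 and 4554 in si-SAM68, where a single control library sets most of the difference (log2 fold change 0.57, adjusted p = 0.21, and 0.16 without it). NDUFA12 was at 2478, 3354 and 3284 against 3816, 3623 and 4049, a log2 fold change of 0.35 (adjusted p = 0.091 in limma and 0.041 in DESeq2), and of 0.20 without si-CTRL replicate 1. NDUFB5, named after its values were seen because DESeq2 called it as well, had a log2 fold change of 0.32 (adjusted p = 0.079 in limma and 0.031 in DESeq2).

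In complex III, which transfers electrons from ubiquinol to cytochrome c, UQCRC2 was the 1 of 9 tested subunits that was called, by limma, edgeR and DESeq2. Of all loci, these called 6.23%, 6.19% and 8.18% lower. UQCRC2 (chr16:21963981-21994980, hg19) encodes a core protein of the complex. Its values were 14144, 14730 and 14870 in si-CTRL and 12275, 11746 and 12415 in si-SAM68. The groups did not overlap and replicates lay close together, with 83.3% of the level left. The log2 fold change was −0.26 (SE 0.07, adjusted p = 0.038 in limma). With the replicate number as a block the adjusted p was 0.061, and 10 of 18 alternatives kept the call. Leaving out any library other than si-CTRL replicate 1 ended it (adjusted p up to 0.17). UQCRQ and UQCRB, small subunits around the core, had log2 fold changes of 0.20 (adjusted p = 0.58) and 0.18 (adjusted p = 0.18). In si-CTRL replicate 1 UQCRQ was at 3783, against 6198 to 7088 elsewhere, and without that control its fold change was −0.11.

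Complex IV, cytochrome c oxidase, had the highest median fold change of the 5 complexes and no call among 12 tested subunits. Of all loci, limma called 4.47% higher and 6.23% lower. COX7C was at 5667, 11217 and 10963 in si-CTRL and at 12724, 11303 and 12761 in si-SAM68 (log2 fold change 0.47, adjusted p = 0.20 in limma). The values show 1 low control and 5 libraries of similar level, and the fold change was 0.14 without that control. NDUFA4, named for complex I but assigned to complex IV, was at 7095, 10461 and 10713 against 12123, 11161 and 12440 (0.36, adjusted p = 0.14, and 0.17 without si-CTRL replicate 1). COX5A had the same low control, with 4361 there and 7401 to 8328 elsewhere (0.35, adjusted p = 0.26, and 0.08 without it). COX4I1, on which the most reads of this complex lay, was at 14417, 17320 and 17252 against 19354, 16958 and 17585 (0.14, adjusted p = 0.36, and 0.05 without si-CTRL replicate 1).

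Isoforms of complex IV that are restricted to other tissues were nearly silent. COX4I2, COX6A2 and COX7B2, of lung, muscle and testis, were listed at 0 in every library. COX7A1 was above 0 in 1 library, by a single read, and COX8C was at 2.91 in 1 library and at 0 in the others. NDUFA4L2, a hypoxia-inducible relative of NDUFA4, ranged from 0 to 17.5 and was not tested. The locus that joins COX6B2, of testis, with FAM71E2 was at 74 to 75 in si-CTRL and at 54 to 99 in si-SAM68, and its reads cannot be assigned to either gene.

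In complex V, 0 of 15 tested subunits were called by limma with all libraries, against 4.47% of all loci called higher and 6.23% lower. ATP5B (chr12:57031961-57039852, hg19), the catalytic beta subunit, was at 38466, 50381 and 50024 in si-CTRL and at 42599, 40223 and 41519 in si-SAM68. Si-CTRL replicate 1 lay below the 3 si-SAM68 libraries and the other controls above them (log2 fold change −0.15, adjusted p = 0.40 in limma). Without that control the fold change was −0.28 and the adjusted p 0.011. The locus that joins ATP5O, a stalk subunit, with CRYZL1 and DONSON was at 16275, 19835 and 19440 against 22308, 21369 and 22968 (0.27, adjusted p = 0.086 in limma and 0.047 in DESeq2), with a fold change of 0.18 without si-CTRL replicate 1. ATP5H and ATP5I, other subunits of the stalk and membrane part, had log2 fold changes of 0.25 (adjusted p = 0.20) and 0.22 (adjusted p = 0.33). Without si-CTRL replicate 1 these were 0.11 and 0.04.

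**Figure D1:**
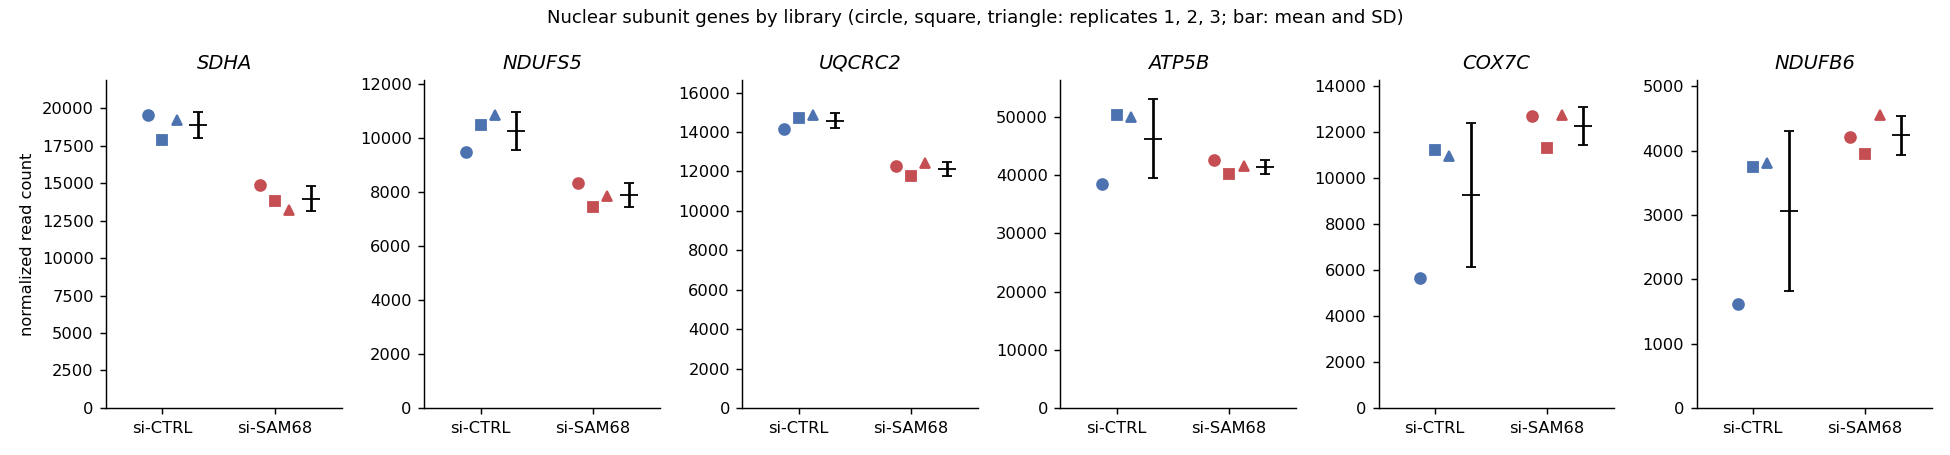
Normalized read counts (y axis, from 0) of 6 nuclear subunit genes in the 3 si-CTRL (blue) and 3 si-SAM68 (red) libraries, with circles, squares and triangles for replicates 1, 2 and 3 and black bars for mean and SD. SDHA, NDUFS5 and UQCRC2 lie lower in every si-SAM68 library, whereas ATP5B, COX7C and NDUFB6 have 1 low control, si-CTRL replicate 1.

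Considered as a group, the nuclear subunits showed a small shift that depended largely on 1 control library. Of 77 tested subunits, 58 had a higher mean and 19 a lower mean in si-SAM68 on the log2 scale, with a median log2 fold change of 0.14 against 0.01 over all tested loci. Without si-CTRL replicate 1 the counts were 38 and 39 and the median was −0.0033. By complex, the median went from 0.13 to −0.01 for complex I, from 0.07 to −0.03 for complex II, from 0.11 to −0.10 for complex III, from 0.21 to 0.05 for complex IV and from 0.13 to 0.01 for complex V when that library was left out. Then 4 of 98 nuclear loci were called lower, the 3 above and ATP5B, against 8.05% of all loci, and 0 higher against 7.01%. With the replicate number as a block 2 nuclear loci were called lower, against 5.12% of all loci, and 0 nuclear loci higher. Without both libraries that stood apart, 50 subunits had a higher and 27 a lower mean, with a median of 0.04. For complex II the median was 0.11 when si-SAM68 replicate 2 alone was left out. Over all 18849 tested loci, 9591 were higher and 9258 lower with all libraries, and 9446 and 9403 without both.

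**Figure D2:**
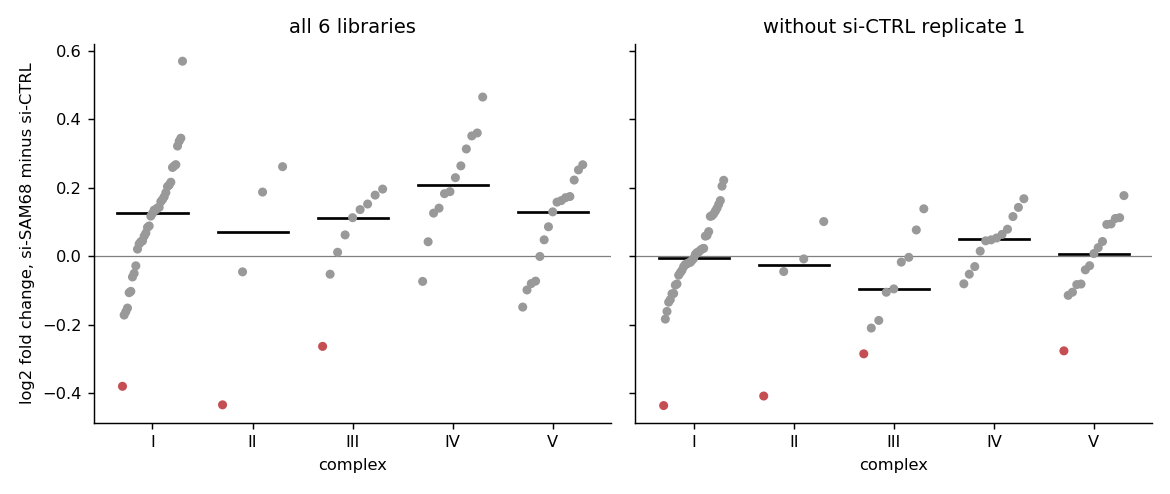
Log2 fold changes (y axis, si-SAM68 minus si-CTRL) of the tested nuclear subunits by complex, with all 6 libraries (left) and without si-CTRL replicate 1 (right). Each point is a locus, red at an adjusted p under 0.05, and the black line is the median, which moves from 0.21 to 0.05 in complex IV, while the red points stay below 0 and number 3 on the left and 4 on the right.

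The groups did not overlap, with si-SAM68 higher, at 15 nuclear loci (15.3% of 98, against 16.6% of all loci). They did not overlap with si-SAM68 lower at 5 (5.1%, against 17.3%). In si-CTRL replicate 1, 57 of the 77 subunits (74.0%) had their lowest value of the 6 libraries, against 28.3% of all tested loci. Of the lists of related genes described below, 20 of 33 carriers and assembly factors were lowest there. So were 19 of 35 genes of mitochondrial RNA and 2 of 9 regulators. The level of the subunits in that library was a median of 0.812 times the mean of the other controls. It ranged from 0.428 for NDUFB6 to 1.37 for NDUFA3, and 67 subunits lay below 1. The median ratio was lowest in complex IV, at 0.680, and between 0.829 and 0.859 in complexes I, II, III and V. SDHA, with a ratio of 1.05, was 1 of 10 subunits above 1. Of the tested subunit loci, 11 join a neighbouring gene, and leaving these out gave the same median fold change of 0.14.

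The mitochondrial loci carry no gene symbols in the table, and they overlap, so that reads cannot be assigned to single mitochondrial genes. A locus at chrM:472-9207 and a locus at chrM:5902-15888 (build hg19, with no version of the mitochondrial sequence given) share 3306 bases, and together they held 81.5% to 97.7% of the mitochondrial reads. On the standard map, given as background, the first spans the rRNAs and genes of subunits of complexes I, IV and V, and the second reaches from the cytochrome oxidase genes to cytochrome b. The other 20 are short, from 20 to 302 bases.

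No mitochondrial locus of 19 tested was called by limma or edgeR at an adjusted p under 0.05, and the smallest adjusted p was 0.12 in each. Of all loci, limma called 4.47% higher and 6.23% lower, and edgeR 4.56% and 6.19%. DESeq2 called none of 14, and gave no adjusted p for the other 5, which are the short loci that were high in si-SAM68 replicate 2. At an unadjusted p under 0.05, 1 locus passed in limma, 5 in edgeR and 2 in DESeq2, each with si-SAM68 higher. Of the 5 in edgeR, 3 are short loci that were high in si-SAM68 replicate 2. Of all 18849 tested loci, 2420 passed with si-SAM68 higher in limma, 2450 in edgeR and 2313 in DESeq2. The locus at 472 to 9207 was at 124336, 52007 and 51620 in si-CTRL and at 50574, 49735 and 46550 in si-SAM68. The locus at 5902 to 15888 was at 1257823, 565405 and 621921 against 606906, 565690 and 553312. Si-CTRL replicate 1 held 2.12 times the mean of the other controls at the second locus and a still higher multiple at the first, and the remaining 5 libraries lay close together. The first was the 1 mitochondrial locus where si-SAM68 was lower without overlap (5.26% of 19, against 17.3% of all loci). The log2 fold changes were −0.50 (SE 0.28, adjusted p = 0.27) and −0.41 (SE 0.25, adjusted p = 0.32), and without that library −0.08 (adjusted p = 0.42) and −0.04 (adjusted p = 0.78).

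As shares of all reads, mitochondrial loci took 2.15%, 0.996% and 1.06% in si-CTRL and 1.04%, 0.994% and 0.952% in si-SAM68. The first control was above the other 5 libraries, which lay between 0.952% and 1.06%. The 2 long loci alone took 2.10%, 0.950% and 1.02% in si-CTRL and 0.997%, 0.810% and 0.903% in si-SAM68. In si-SAM68 replicate 2 a further 0.156% lay on the short loci inside the first long locus and outside the second. The nuclear subunits took 0.798%, 0.977% and 0.977% in si-CTRL and 0.987%, 0.791% and 0.958% in si-SAM68. Here si-CTRL replicate 1 and si-SAM68 replicate 2 were low, the latter being the library with much rRNA. Reads on the long mitochondrial loci per read on nuclear subunits were 2.63, 0.972 and 1.05 in si-CTRL and 1.01, 1.02 and 0.942 in si-SAM68. In this ratio, which the rRNA share does not enter, si-SAM68 replicate 2 lay among the other libraries and si-CTRL replicate 1 stood alone.

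**Figure D3:**
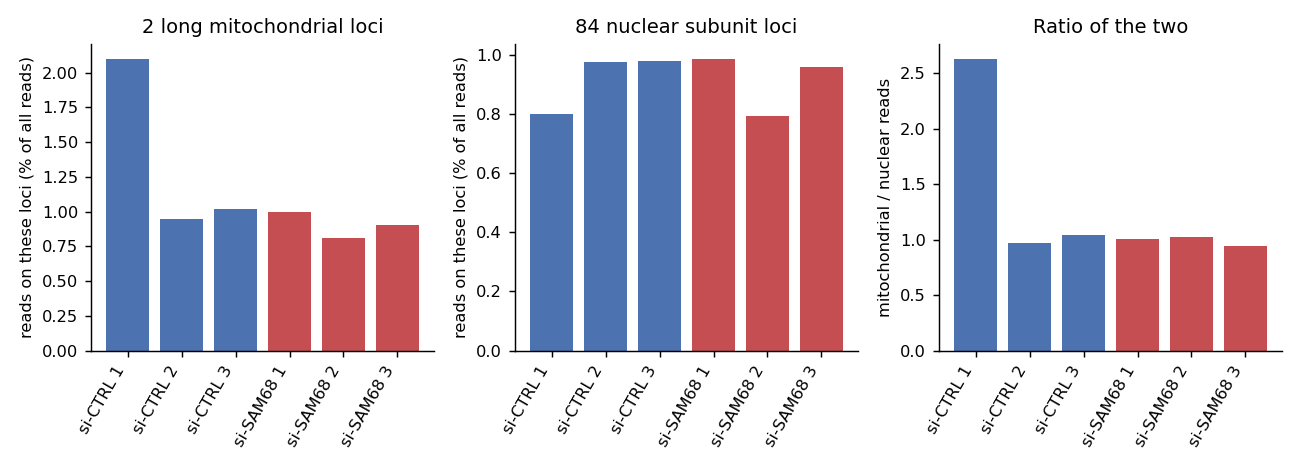
Percent of all recovered reads (y axis, from 0) on the 2 long mitochondrial loci (left) and on the 84 nuclear subunit loci (middle), and the ratio of the former to the latter (right), in the 3 si-CTRL (blue) and 3 si-SAM68 (red) libraries. The ratio is 2.63 in si-CTRL replicate 1, and the other 5 libraries span 0.942 to 1.05.

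The comparison of the genomes was also made on the deposited scale, as the median log2 deviation of the long mitochondrial loci from their mean over libraries, minus that of the nuclear subunits. It was 1.26, −0.24 and −0.18 in si-CTRL and −0.29, −0.23 and −0.36 in si-SAM68. The groups overlapped. The mean difference between groups was −0.57, and −0.06 without si-CTRL replicate 1. In that library the mitochondrial loci were up by 1.01 and the nuclear subunits down by 0.25 as medians, so that the sets lay 1.26 apart there and at most 0.36 apart in the other 5 libraries. This library also had a wide spread over all loci, and the part of that spread in these values was not tested.

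Of the short mitochondrial loci, 6 lie between 694 and 1634, inside the first long locus and outside the second, a stretch that on the standard map lies mostly in the small mitochondrial rRNA. In si-SAM68 replicate 2 the 5 tested loci were at 15820 to 39364, and in the other libraries at 1576 to 4012. The excess was seen in a single library. The long locus around these loci was at 49735 there, within the range of the other si-SAM68 libraries. The loci of this stretch held 128694 recovered reads in that library, more than that long locus. Reads on the short loci are thus not all counted in the long locus, whose value does not give the level of this stretch. The median log2 fold change of the 5 was 1.02 with adjusted p-values of 0.34 or more in limma, and −0.26 without that library. The rRNA precursor, RMRP and RPPH1 (811 against 42.5 to 120 elsewhere) were high in the same library, and their part in this excess was not tested.

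**Figure D4:**
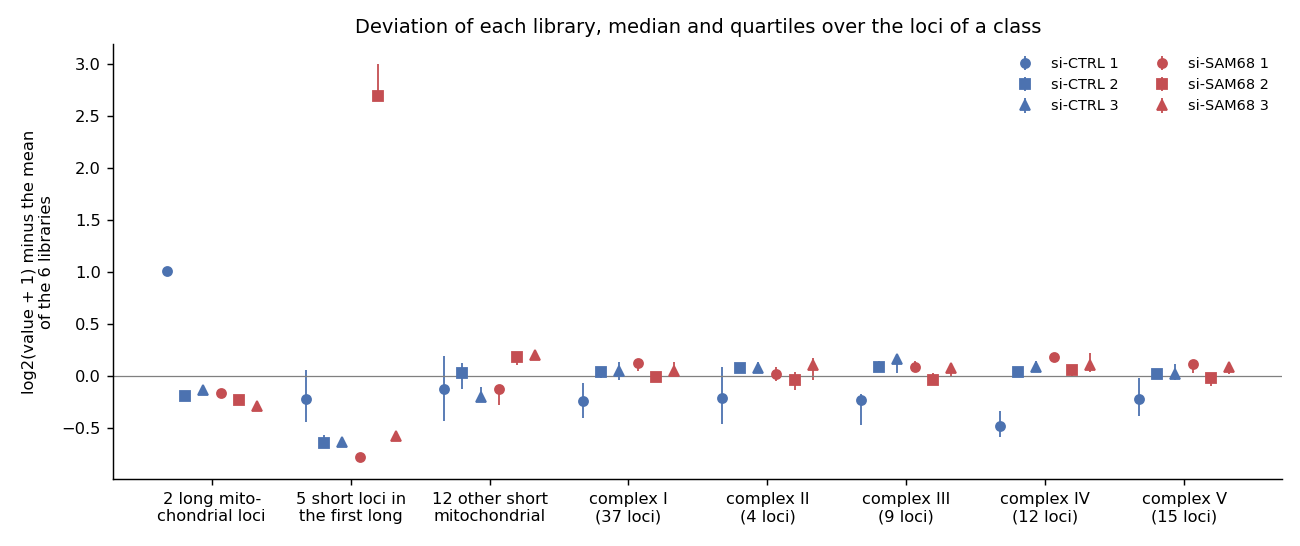
Deviation of log2(value + 1) from the mean of the 6 libraries (y axis), as the median (symbol) and quartiles (line) over the tested loci of each class, for the 3 si-CTRL (blue) and 3 si-SAM68 (red) libraries. Si-CTRL replicate 1 is high at the 2 long mitochondrial loci (1.01) and low in the median of each nuclear complex. In complex II that library was the lowest at 2 of 4 loci. Si-SAM68 replicate 2 is high (2.69) at the 5 short loci inside the first long locus.

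The 12 other tested short loci had log2 fold changes from −0.31 to 0.51 and a median of 0.13, or 0.05 without si-SAM68 replicate 2 and 0.09 without si-CTRL replicate 1. The locus at 6889 to 7190 was at 659, 936 and 759 in si-CTRL and at 865, 1175 and 1046 in si-SAM68. The ranges overlap, and libraries with the same replicate number keep the same order in both groups. Its log2 fold change was 0.39, with an adjusted p of 0.12 in limma and of 0.039 with the replicate block. It was the 1 of 19 mitochondrial loci called higher in that fit, against 3.88% of all loci. Without si-CTRL replicate 1 the adjusted p was 0.19. The locus at 15957 to 16024, at 35.0 to 47.5 in si-CTRL and 48.4 to 81.9 in si-SAM68, was the 1 mitochondrial locus where si-SAM68 was higher without overlap (5.26% of 19, against 16.6% of all loci). Its log2 fold change was 0.51 (adjusted p = 0.22), and 0.31 without si-SAM68 replicate 2. A further 3 loci had means below 10 and were not tested. Nuclear copies of mitochondrial rRNA could take some of these reads, and the most highly counted of them, MTRNR2L2, was at 78.9 to 146.

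None of the 14 assembly and other factors of the rule was called by limma, edgeR or DESeq2. Of all loci, limma called 4.47% higher and 6.23% lower. The median log2 fold change of the factors was −0.03 (−0.02 without si-SAM68 replicate 2), with 6 higher and 8 lower. NDUFAF5, an assembly factor of complex I, was at 479, 566 and 568 in si-CTRL and at 618, 672 and 732 in si-SAM68 (adjusted p = 0.094), and was named after its values were seen as the factor with the smallest p. The 7 tested pseudogenes and antisense RNAs had a median of −0.09 (−0.04 without si-CTRL replicate 1) and no call in limma. NDUFV2-AS1, NDUFA6-AS1 and NDUFB2-AS1 lie opposite a subunit gene, and since the use of strand in counting is not given in the sources used here, reads of the pairs cannot be told apart. The remaining 12 members, 9 nuclear and 3 mitochondrial, had a mean below 10 and were not tested.

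Of 35 genes that copy, process or stabilize mitochondrial RNA, 1 was called higher and 1 lower by limma, against 4.47% and 6.23% of all loci. EdgeR called 2 higher (4.56% of all loci) and DESeq2 3 (6.62%), the additional genes being POLG2 in both and MTERF1 in DESeq2. Each called 1 lower, against 6.19% of all loci in edgeR and 8.18% in DESeq2. The median log2 fold change was 0.08 in limma and 0.05 without si-CTRL replicate 1. TFAM, which packages mitochondrial DNA and activates its transcription, was at 11363, 14952 and 14672 in si-CTRL and at 17733, 18515 and 21454 in si-SAM68. Every si-SAM68 library was above every control. The log2 fold change was 0.50 (SE 0.12, adjusted p = 0.026 in limma), and 0.37 (adjusted p = 0.010) without si-CTRL replicate 1, where TFAM was lowest. GRSF1, an RNA-binding protein of mitochondrial RNA granules, was at 4749, 5518 and 5915 against 3713, 3777 and 4016. It left 71.1% of the control level (log2 fold change −0.49, SE 0.09, adjusted p = 0.011), and −0.58 without si-CTRL replicate 1. Leaving out a si-SAM68 library ended the TFAM call in each of 3 cases (adjusted p up to 0.12) and the GRSF1 call in 2 (up to 0.053). POLRMT, the mitochondrial RNA polymerase, and LRPPRC, which stabilizes mitochondrial mRNAs, did not pass the test, with log2 fold changes of −0.14 (adjusted p = 0.31) and 0.15 (adjusted p = 0.25). That of LRPPRC was 0.10 without si-CTRL replicate 1.

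Of 33 electron carriers and assembly factors outside the rule, 1 was called in each direction by limma, against 4.47% of all loci higher and 6.23% lower. DESeq2 called 2 higher, COX15 in addition, against 6.62% of all loci, and 1 lower, against 8.18%. The median log2 fold change was 0.08, and −9.2e-04 without si-CTRL replicate 1, where 3 were called higher (7.01% of all loci) and 2 lower (8.05%). COX20, which assists the assembly of complex IV, was at 4941, 5103 and 5372 in si-CTRL and at 6624, 6884 and 7751 in si-SAM68. The groups did not overlap (log2 fold change 0.46, SE 0.08, adjusted p = 0.0087 in limma), and 17 of 18 alternatives kept the call. TTC19, needed for complex III, was at 2120, 1838 and 1928 against 1529, 1595 and 1599. Its log2 fold change was −0.32 (SE 0.08, adjusted p = 0.043), and 0.068 was the adjusted p with the replicate block. The call held in 9 of 18 alternatives, and of the libraries left out in turn only the removal of si-CTRL replicate 1 kept it. CYC1 and CYCS, the cytochromes c1 and c, did not pass, with log2 fold changes of 0.03 (adjusted p = 0.87) and 0.18 (adjusted p = 0.54). That of CYCS was −0.05 without si-CTRL replicate 1.

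**Figure D5:**
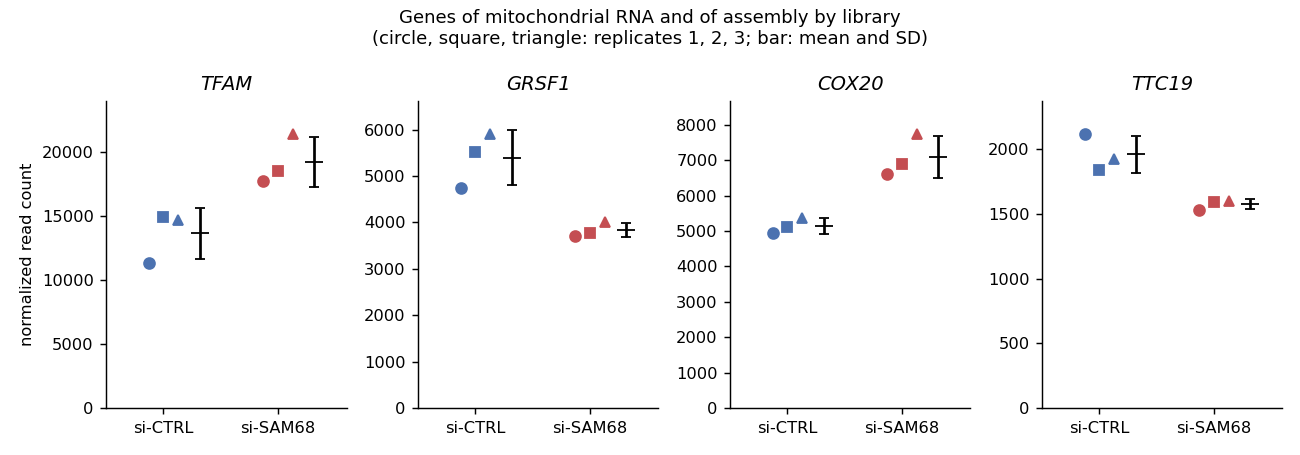
Normalized read counts (y axis, from 0) of TFAM, GRSF1, COX20 and TTC19 in the 3 si-CTRL (blue) and 3 si-SAM68 (red) libraries, with circles, squares and triangles for replicates 1, 2 and 3 and black bars for mean and SD. In each of the 4 genes the groups do not overlap, with TFAM and COX20 higher and GRSF1 and TTC19 lower in si-SAM68.

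None of the 9 tested regulators of nuclear respiratory genes was called by limma or edgeR with all libraries. Of all loci, limma called 4.47% higher and 6.23% lower, and edgeR 4.56% and 6.19%. DESeq2 called 1 lower, MYC, against 8.18% of all loci, and 0 higher, against 6.62%. The median log2 fold change was −0.12. At 5 of the 9 the si-SAM68 libraries all lay below the si-CTRL libraries, against 17.3% of all loci. At 1 they all lay above, against 16.6%. NRF1, which activates many subunit genes, was at 1279, 1114 and 1063 in si-CTRL and at 1298, 1132 and 1149 in si-SAM68 (0.05, adjusted p = 0.78, and 0.13 without si-CTRL replicate 1). PPARGC1A, a coactivator of mitochondrial biogenesis, was between 0 and 20.0 and was not tested. MYC, named after its values were seen, had a log2 fold change of −0.47 (adjusted p = 0.065 in limma, 0.062 in edgeR and 0.0071 in DESeq2) and of −0.27 (adjusted p = 0.014) without si-CTRL replicate 1, where it was highest at 7621.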

How the data were processed

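MDA-MB-231 cells were sequenced as 3 si-CTRL and 3 si-SAM68 libraries (TruSeq Stranded mRNA kit, per the labels). The authors deposited 1 table with a signal, the reads counted per locus of FAST DB (hg19) divided by DESeq2 size factors. The submitters' processing notes name STAR 2.4.0, SAMtools, Picard, FastQC and DESeq2, and the use of strand is not given in the sources used here. Per library, values were whole multiples of 1 step for 100% of loci (tolerance 0.02) and were turned into reads, although the step of 1.007 in si-SAM68 replicate 1 is too near 1 to tell.

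Values were tested with limma 3.58.1 in R 4.3.3 (eBayes with a trend) on log2(value + 1), for the 18849 loci whose mean reached 10, and fold changes are on that scale. Benjamini-Hochberg adjustment covered all tested loci. edgeR 4.0.16 (2026 loci called) and DESeq2 1.42.0 (2789 called, 2209 without an adjusted p) on the recovered reads were alternatives, beside limma with 2017. Other alternatives were pseudocounts of 0.1 and 5, no filter, a minimum mean of 50, TMM and quantile scaling, size factors from other nuclear loci, eBayes without a trend, the replicate block and each library left out. The 2 libraries that stood apart were left out together as an alternative chosen after seeing the data. Programs were tested on simulated data.

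The members, the lists of related genes and the tests were chosen with earlier results of these data known. Mitochondrial loci have no symbols, so that the planned classes of mRNA and rRNA loci were replaced by position. Named genes are, per complex, those called, then the largest changes at a mean of at least 50 up to 3, and the highest mean, with TFAM, POLRMT, LRPPRC, NRF1, PPARGC1A, CYC1, CYCS, the isoforms of other tissues and the genes called in the lists. Deviations from group means of libraries with the same replicate number correlated at 0.105, 0.231 and 0.125, and those of different number at -0.125 to 0.007. The deviations of a group sum to 0 at each locus, so that these correlations are not independent of each other. Whether the numbers pair the libraries was not settled by them, and the main fit used no pairing. With the replicate block as an alternative, 2 nuclear loci were called in place of 3. Counts within a group differed by at least 12.6 times the sampling variance. Precision is limited by 3 libraries a group.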

Additional observations from a re-analysis of the deposited data

How the results depend on the processing

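The count of 3 nuclear loci called was 6 with DESeq2, 1 with eBayes without a trend, 5 without both libraries that stood apart, 0 by the thresholds of the study in limma, and between 0 and 4 with 1 library left out (4 without si-CTRL replicate 1, 1 when si-CTRL replicate 2 or 3 or si-SAM68 replicate 2 was dropped, 0 when si-SAM68 replicate 3 was dropped). It was 2 with the replicate block, where the mitochondrial count went from 0 to 1, and the block ended the calls of UQCRC2 and TTC19 and no other call among the genes followed through the alternatives. The median log2 fold change of the nuclear subunits was 0.14, between -0.0033 and 0.20 with 1 library left out, and 0.04 without both libraries that stood apart. The mean difference in the mitochondrial share of reads, -0.41 percentage points, was -0.04 without si-CTRL replicate 1. With 1 library left out SDHD lay between -0.0079 and 0.29 and UQCRQ between -0.11 and 0.35, both below 0 without si-CTRL replicate 1, and UQCRQ was -0.06 with si-SAM68 replicate 2 also left out. Neither was called in these fits. KHDRBS1 kept its call in 18 of 18 alternatives. Where a call changed, the cause was not tested. TMM factors, quantile scaling and size factors from other nuclear loci left the median of all loci within 0.01. Depth does not limit the long mitochondrial loci or the subunits given by library, whose lowest value was 1619, and the spread between 3 libraries does.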
